A study of Mus musculus with 36 samples.

Results

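The transcripts described here are 10 mRNAs by which mouse neutrophils are usually recognised, namely Mpo, Elane, Ngp, Camp, Ltf, Mmp8, Retnlg, S100a8, S100a9 and Csf3r. A probe was taken when its gene name in the array files equalled one of these symbols and it was not a control spot. All 10 symbols were found, with 11 probes (Mpo has 2), among 37325 genes with a probe on the array. The 10 symbols were selected on the signals of these same arrays, in that they were listed with earlier results of them known, and the rule names no contrast, so all their differences between groups count as used in the choice. Member values are therefore given as a description, with no test, and support nothing.

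The data are 36 liver RNA samples of male C57Bl/6J mice, 6 in each of 6 groups, each on 1 single-colour expression array. Groups combine a genotype with a condition. AAKO mice lack ATGL, the lipase that opens triglyceride breakdown, in white adipose tissue, and CTRL mice are their controls. Both genotypes were studied fed ad libitum, after a 24 h fast, or fed and given CL316243, an agonist of the beta3 adrenergic receptor of fat cells, as 1 gavage of 3 mg/kg in carboxymethyl cellulose at ZT10. Every mouse was killed at ZT16, which falls in the dark phase. Fed mice come from experiment 2, and both other conditions from experiment 1, so a contrast with the fed state also compares 2 experiments and the effects of state and experiment cannot be told apart. A gavage is described for CL316243 alone, and whether fed or fasted mice received vehicle is not given in the sources used here. The alleles, the promoter behind the deletion and the age of the mice are likewise not given in the sources used here. ATGL was removed in fat, so its probe in liver RNA would check no label.

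Values are log2 signal relative to the array's 75th percentile, so 0 marks a probe at that percentile and 1 unit a doubling. Levels of different probes are not set against each other. The share of all genes whose ranges do not overlap between groups is not given here. Nothing is therefore read from a lack of overlap. A probe entered the fit across all genes when at least 1 group had 5 or more of its 6 arrays well above background, which 24251 genes did, all 10 transcripts among them. Of the 10, Mpo, Elane, Camp, Mmp8, S100a8, S100a9 and Csf3r were well above background on all 36 arrays, Retnlg on 29, Ltf on 14 and Ngp on 11. Ngp and Ltf passed the filter through fasted AAKO alone, on 6 and 5 of its 6 arrays. Their differences from that group are therefore partly set by the background, and their calls give no support. The second Mpo probe was well above background on 0 of 36 arrays. Each array had 33130 to 37200 probes clear of background, and 10 of 10 hepatocyte markers passed the filter, with mean levels between 8.37 and 8.78 on every array.

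Of the 36 arrays, 1 stood apart from its group over all tested genes. The first principal component over all tested genes held 41.9% of the variance; it placed CTRL fasted replicate 2 at 81.3, the other CTRL fasted arrays at 16.8 to 29 and the AAKO fasted arrays at 103 to 111. It is written below as the array labelled CTRL fasted replicate 2, and many, though not all, values that rest on it are given with and without it. AAKO fed replicates 1 and 6 stood apart in the neutrophil transcripts, while their component scores (-42.7 and -41.9) lay among those of the other fed AAKO arrays (-52.2 to -36.7).

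Neutrophils are short-lived white cells that leave the bone marrow already loaded with granule proteins. Their granules are filled in sequence: Mpo and Elane are transcribed in early promyelocytes for the primary granules, Ngp, Camp and Ltf at the next stages for the secondary granules, and Mmp8 with them or later. S100a8, S100a9 and Retnlg transcripts persist in mature circulating cells, and Csf3r encodes the receptor for the growth factor G-CSF. Factors of the C/EBP family and PU.1 drive this programme, and STAT3 acts below the G-CSF receptor. In the liver neutrophils lie in the sinusoids and in blood, so RNA of a whole liver holds transcripts of both.

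Promoter sequence is shown first for 6 of the transcripts: the calprotectin pair S100a8 and S100a9, whose signals were nearly proportional across arrays; Ngp and Mmp8, which each hold 2 C/EBP patterns; and Elane and Csf3r, whose signals did not follow the others. Each window runs from 250 bases before to 50 bases after the RefSeq start (build GRCm38.p6), is written 5′ to 3′ on the gene's strand, and has matches to the searched patterns in capitals.
S100a8, chr3:90668821-90669120, plus strand: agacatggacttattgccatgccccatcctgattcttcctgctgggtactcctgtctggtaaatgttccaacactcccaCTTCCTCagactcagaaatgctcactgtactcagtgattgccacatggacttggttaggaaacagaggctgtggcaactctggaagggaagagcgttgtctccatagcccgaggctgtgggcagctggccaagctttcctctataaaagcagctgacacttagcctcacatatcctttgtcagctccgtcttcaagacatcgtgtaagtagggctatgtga
S100a9, chr3:90695672-90695971, minus strand: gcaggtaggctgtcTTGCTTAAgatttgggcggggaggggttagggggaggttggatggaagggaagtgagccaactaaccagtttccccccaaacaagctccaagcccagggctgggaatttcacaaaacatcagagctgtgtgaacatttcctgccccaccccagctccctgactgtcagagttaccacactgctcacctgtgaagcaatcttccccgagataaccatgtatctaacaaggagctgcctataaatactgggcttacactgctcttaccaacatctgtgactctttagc
Ngp, chr9:110419558-110419857, plus strand: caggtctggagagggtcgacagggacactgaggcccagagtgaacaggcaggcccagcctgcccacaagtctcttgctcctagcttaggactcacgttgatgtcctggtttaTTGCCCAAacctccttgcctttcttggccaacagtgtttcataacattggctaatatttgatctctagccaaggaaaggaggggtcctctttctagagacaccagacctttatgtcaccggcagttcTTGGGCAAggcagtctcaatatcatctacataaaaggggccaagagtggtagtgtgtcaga
Mmp8, chr9:7558179-7558478, plus strand: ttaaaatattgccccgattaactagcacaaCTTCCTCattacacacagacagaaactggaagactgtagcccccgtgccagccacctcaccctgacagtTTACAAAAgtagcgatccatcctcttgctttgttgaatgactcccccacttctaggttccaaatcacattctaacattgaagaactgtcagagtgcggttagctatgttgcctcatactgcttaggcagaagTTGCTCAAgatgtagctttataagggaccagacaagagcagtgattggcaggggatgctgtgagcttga
Elane, chr10:79886062-79886361, plus strand: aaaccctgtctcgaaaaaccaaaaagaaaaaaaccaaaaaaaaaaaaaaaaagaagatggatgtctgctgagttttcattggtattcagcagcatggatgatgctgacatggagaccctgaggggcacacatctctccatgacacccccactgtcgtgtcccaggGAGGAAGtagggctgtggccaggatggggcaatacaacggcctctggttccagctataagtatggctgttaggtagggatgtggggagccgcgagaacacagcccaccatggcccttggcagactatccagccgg
Csf3r, chr4:126024409-126024708, plus strand: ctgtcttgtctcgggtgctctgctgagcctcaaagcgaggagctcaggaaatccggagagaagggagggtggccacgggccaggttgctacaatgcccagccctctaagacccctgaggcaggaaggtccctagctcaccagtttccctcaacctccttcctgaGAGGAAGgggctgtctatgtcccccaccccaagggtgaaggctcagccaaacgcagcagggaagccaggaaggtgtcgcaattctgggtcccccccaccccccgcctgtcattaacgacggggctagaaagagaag
Searched were TTGCNNAA or TTACNNAA for C/EBP, GAGGAAG for PU.1 and TTCNNNGAA for STAT, on both strands, and no match overlapped one of another pattern. The C/EBP pattern was found in 5 of 10 windows (S100a9, Ngp, Ltf, Retnlg and Mmp8) and in 18.5% of the 32851 windows of 300 bases in the table. PU.1's pattern was found in 5 of 10 (S100a8, Mpo, Elane, Csf3r and Mmp8) and in 13.6% of all windows. The STAT pattern was found in 0 of 10 members and in 8.3% of all windows. Camp held none of the 3. A match describes letters and shows no bound factor.

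The primary granule genes differed in behaviour. Mpo, the peroxidase that makes hypochlorous acid, is measured by a probe at chr11:87617102-87617877 (mm9, as for all probe positions here). Mpo lay at -3.81 to -3.23 (median -3.41) in fed CTRL livers, at -3.84 to -0.88 (median -3.24) in fed AAKO livers, at -4.3 to -3.06 (median -3.79) in fasted CTRL livers and at -4.09 to -3.62 (median -3.8) in fasted AAKO livers. After CL316243 Mpo lay at -3.84 to -3.22 (median -3.67) in CTRL and at -4.09 to -3.49 (median -3.82) in AAKO livers. The high value of the fed AAKO group belongs to replicate 6, at -0.88, followed by replicate 1 at -2.59, and the other 4 fed AAKO arrays lay at -3.84 to -3.09. Replicate 6 was also the highest array of its group on the second Mpo probe, at -5.37 against -8.05 to -7.48, although neither value was well above background. Elane encodes neutrophil elastase, a serine protease (probe at chr10:79350902-79350961). Its 6 group means lay between 0.18 and 0.38, and its arrays between -0.01 and 0.63, so that all groups overlapped.

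Of the secondary granule genes, Ngp and Ltf were dim on most arrays. Ngp, neutrophilic granule protein, is a member of the cystatin family (probe at chr9:110324266-110324814). Ngp lay at -7.13 to -5.34 (median -6.23) in fed CTRL livers, at -7.72 to -2.65 (median -5.63) in fed AAKO livers, at -7.12 to -2.23 (median -6.09) in fasted CTRL livers and at -5.24 to -1.25 (median -3.3) in fasted AAKO livers. After CL316243 Ngp lay at -6.87 to -5.39 (median -6.17) in CTRL and at -7.65 to -5.4 (median -6.35) in AAKO livers. It stood clear of background on 6 of 6 fasted AAKO arrays, and on 0 arrays of the CTRL fed, CTRL CL316243 and AAKO CL316243 groups. Groups of fasted and CL316243-treated AAKO livers did not overlap, and Ngp was at least 4.79-fold higher after fasting, a bound set against the lowest signal well above background in the dim group. Camp, the cathelicidin precursor (probe at chr9:109749911-109749970), had group means between -2.27 and -1.25. Camp lay at -2.15 to -1.44 (median -1.82) in fed CTRL livers, at -2.08 to 0.58 (median -1.69) in fed AAKO livers, at -3.11 to -0.5 (median -2.69) in fasted CTRL livers and at -2.94 to 0.3 (median -1.72) in fasted AAKO livers. With CL316243 Camp read -2.65 to -1.67 (median -2) in CTRL livers and -2.41 to -1.71 (median -1.99) in AAKO livers. Its 3 highest arrays were AAKO fed replicate 6 (0.58), AAKO fasted replicate 1 (0.3) and the array labelled CTRL fasted replicate 2 (-0.5). Ltf encodes lactoferrin, an iron-binding granule protein (probe at chr9:110942873-110942932). Ltf lay at -8.15 to -5.37 (median -5.91) in fed CTRL livers, at -7.36 to -1.5 (median -5.63) in fed AAKO livers, at -8.21 to -1.71 (median -7.04) in fasted CTRL livers and at -6.58 to -1.06 (median -4.03) in fasted AAKO livers. After CL316243 Ltf lay at -7.84 to -5.14 (median -7.35) in CTRL and at -7.61 to -5.98 (median -6.37) in AAKO livers. It was well above background on 0 of 6 CL316243-treated AAKO arrays and 5 of 6 fasted ones. Against the background bound of the dim group the difference was 3.22-fold. That is no strict lower limit, since fasted AAKO replicate 6, at -6.58, was taken as measured.

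Mmp8, neutrophil collagenase (probe at chr9:7567968-7568026), separated fasted from CL316243-treated AAKO livers. Mmp8 lay at -4.53 to -3.75 (median -4) in fed CTRL livers, at -5.18 to -2.18 (median -4.02) in fed AAKO livers, at -4.07 to -0.17 (median -3.95) in fasted CTRL livers and at -2.42 to 0.39 (median -1.29) in fasted AAKO livers. With CL316243 Mmp8 read -4.44 to -3.33 (median -4.15) in CTRL livers and -4.03 to -2.95 (median -3.58) in AAKO livers. All 6 fasted AAKO arrays exceeded all 6 CL316243-treated AAKO arrays and 5 exceeded every fed AAKO array. One of the 6 exceeded every fasted CTRL array, since the array labelled CTRL fasted replicate 2 stood at -0.17 and the next of its group at -3.1.

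The transcripts of mature cells had the widest ranges. S100a8 and S100a9 encode the subunits of calprotectin, which binds calcium and zinc and is the most abundant cytosolic protein of neutrophils (probes at chr3:90473778-90473837 and chr3:90496573-90496632). S100a8 lay at -3.76 to -0.49 (median -2.45) in fed CTRL livers, at -3.52 to 2.65 (median -2.16) in fed AAKO livers, at -4.22 to 3.56 (median -2.1) in fasted CTRL livers and at 0.03 to 4.31 (median 2.3) in fasted AAKO livers. With CL316243 S100a8 read -5.05 to -0.98 (median -2.21) in CTRL livers and -1.86 to 0.24 (median -0.7) in AAKO livers. For S100a8 the 6 fasted AAKO arrays read 4.31, 1.87, 2.87, 2.03, 2.58 and 0.03 for replicates 1 to 6, and the fasted CTRL arrays -3.61, 3.56, -1.35, -4.22, 0.53 and -2.86. Fed AAKO replicates 1 and 6 read 0.99 and 2.65, while the other 4 lay at -3.52 to -1.3. Fasted AAKO arrays were the highest as a group, but CTRL fasted replicates 2 and 5, AAKO fed replicates 1 and 6 and AAKO CL316243 replicate 6 (0.24) each lay above their lowest array, so the ranges overlap. S100a9 lay at -1.35 to 1.52 (median -0.41) in fed CTRL livers, at -1.29 to 4.53 (median -0.2) in fed AAKO livers, at -2.21 to 5.22 (median 0.03) in fasted CTRL livers and at 2.08 to 5.87 (median 4.02) in fasted AAKO livers. With CL316243 S100a9 read -2.4 to 1.4 (median 0.19) in CTRL livers and 0.49 to 2.47 (median 1.57) in AAKO livers. Above the lowest fasted AAKO array of S100a9 lay the same CTRL fasted and AAKO fed arrays, and AAKO CL316243 replicates 6 and 1 at 2.47 and 2.14. Retnlg encodes resistin-like gamma, a secreted peptide of mature neutrophils (probe at chr16:48874468-48874527). Retnlg lay at -5.91 to -3.67 (median -5.24) in fed CTRL livers, at -6.71 to -0.35 (median -4.73) in fed AAKO livers, at -5.85 to 2.18 (median -3.47) in fasted CTRL livers and at -0.58 to 2.36 (median 1.17) in fasted AAKO livers. With CL316243 Retnlg read -7.71 to -2.53 (median -4.49) in CTRL livers and -3.95 to -1.85 (median -2.99) in AAKO livers. All fasted AAKO arrays exceeded all CL316243-treated AAKO arrays in Retnlg, and 5 of 6 exceeded all fed AAKO arrays.

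Csf3r was nearly constant. The G-CSF receptor probe (chr4:125721478-125721537) read 6.7 ± 0.0646 in fed CTRL livers and 6.71 ± 0.0521 in fed AAKO livers (SD, n = 6). In the fasted state it read 6.88 ± 0.08 in CTRL and 7.05 ± 0.0886 in AAKO. Fasted AAKO arrays all exceeded fed AAKO arrays, by 0.33 ± 0.05 on the log2 scale (SE), a 1.26-fold difference. The spread within groups was small enough that this difference left no overlap.

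**Figure D1:**
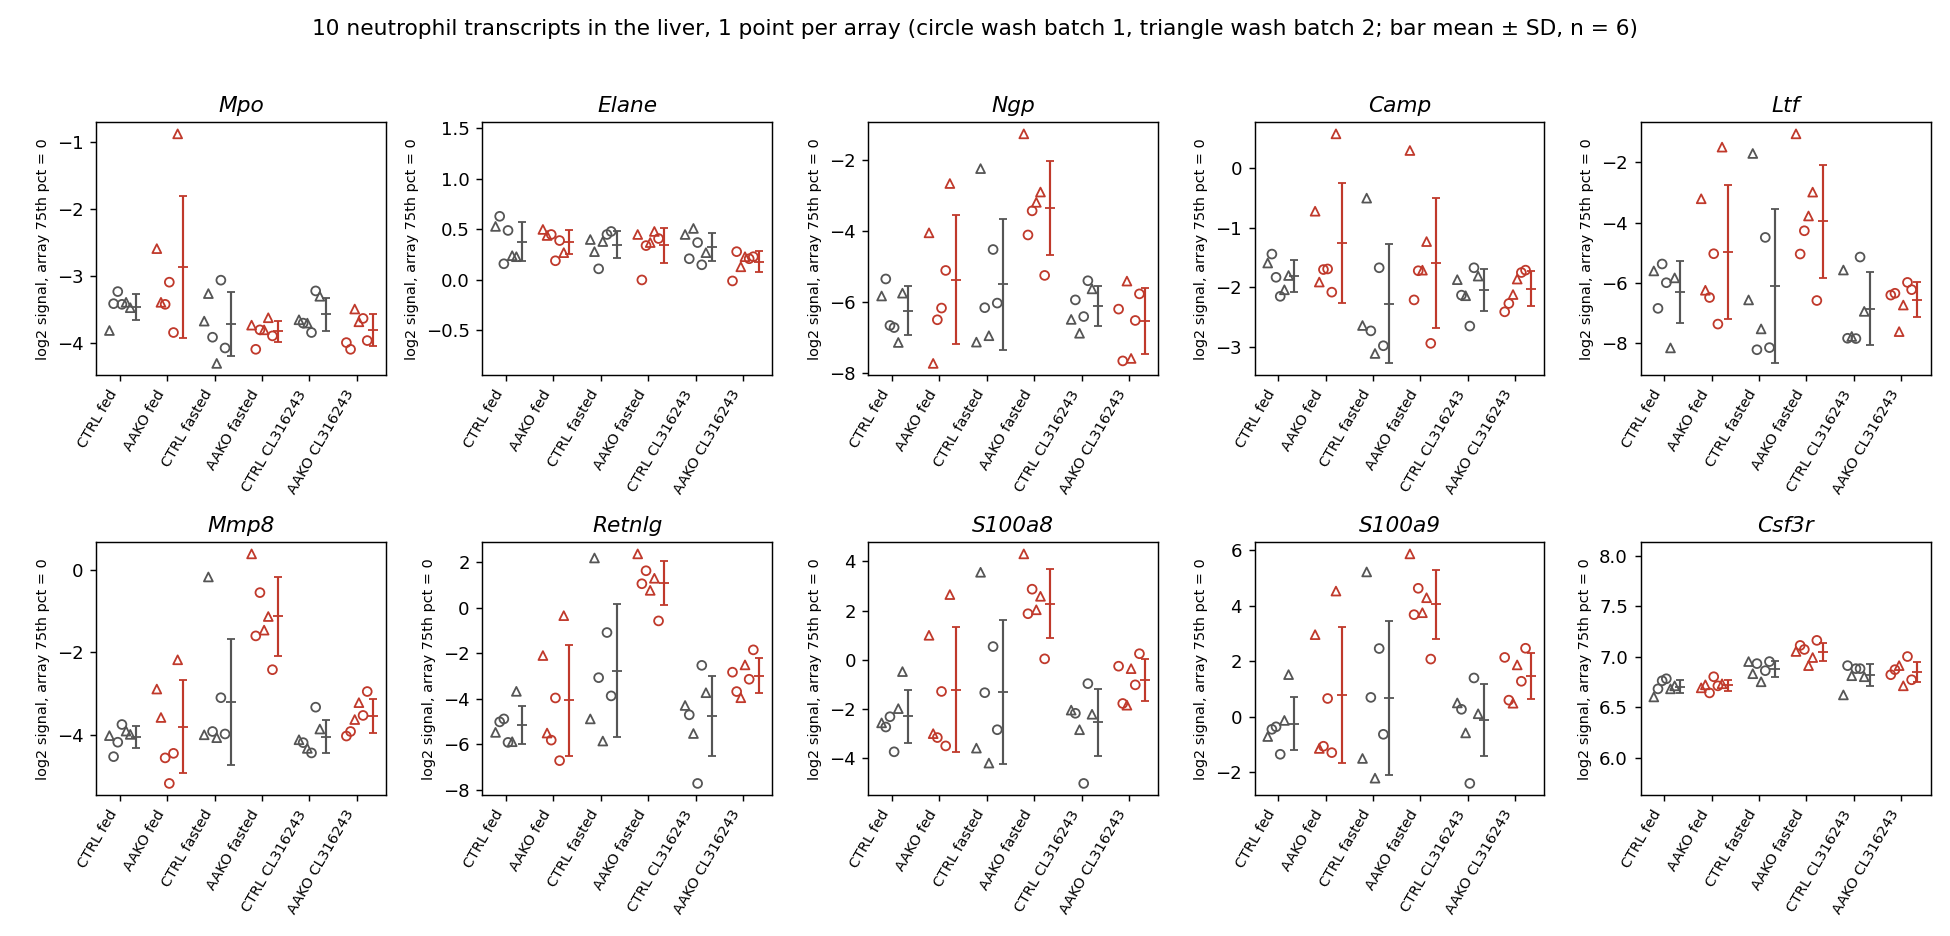
Each panel plots 1 transcript's log2 signal relative to the array's 75th percentile (vertical axis) on the 6 arrays of each of the 6 groups; circles are wash batch 1, triangles wash batch 2, grey CTRL, red AAKO, and bars the mean ± SD. S100a8, S100a9 and Retnlg have their highest medians in fasted AAKO livers, with 1 or 2 fasted CTRL and fed AAKO arrays, and for S100a8 and S100a9 also CL316243-treated AAKO arrays, reaching into their range, while Elane and Csf3r hardly differ between arrays.

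Genotype differences were largest in the fasted state, except for Mpo (0.59 ± 0.28 in fed livers) and Elane (-0.14 ± 0.09 after CL316243). Differences are those of the fit with wash batch as a term, given with their standard errors, and they compare 6 arrays with 6. In fasted livers AAKO exceeded CTRL by 3.85 ± 1.01 for Retnlg, 3.6 ± 1.02 for S100a8 and 3.38 ± 0.97 for S100a9, folds of 14.4, 12.2 and 10.4. The granule genes followed with 2.15 ± 0.72 for Ngp, 2.15 ± 0.93 for Ltf, 2.08 ± 0.47 for Mmp8 and 0.68 ± 0.4 for Camp. Ngp and Ltf each cleared background on 2 of the 6 fasted CTRL arrays, so their sizes are partly set by the background. Csf3r differed by 0.17 ± 0.05, Mpo by -0.11 ± 0.28 and Elane by -0.01 ± 0.09. Ranges of the genotypes overlapped for all 10. In RNA of whole liver, more or fewer neutrophils and more or less of these RNAs per neutrophil cannot be told apart in any of these values.

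The median over the 10 transcripts was 2.11 in this comparison, beside -0.04 over all 24251 tested genes. Of the 10, 6 were past an adjusted p of 0.05 in the limma fit, where 49.3% of all tested genes were, and all 6 were higher in AAKO; since the members were chosen with these results known, nothing is read from that count. Without the array labelled CTRL fasted replicate 2 the median was 2.71 and the count was 8, beside 51.8% of all genes. S100a8 then differed by 4.52, Retnlg by 4.8 and Mmp8 by 2.64. In wash batch 1 alone S100a8 differed by 2.81 and Retnlg by 3.37, and in wash batch 2 alone by 4.39 and 4.32, with 0 of 10 past the threshold in that batch. The share of all genes past it in that batch is not given here. With normexp background correction and quantile scaling the median was 0.44, with S100a8 at 2.85, Retnlg at 2.4, Mmp8 at 1.06, Ngp at 0.45 and Ltf at 0.39.

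In fed livers the genotype difference rested on AAKO fed replicates 1 and 6. Medians were 0.73 over the 10 transcripts and 0 over all genes; 0 of 10 passed the threshold, where 0.0783% of all genes did. Ltf differed by 1.33 ± 0.93, S100a8 by 1.08 ± 1.02 and Retnlg by 1.07 ± 1.01, each with a standard error close to the difference. Without AAKO fed replicates 1 and 6, left out after their values were seen, the median was -0.05, and S100a8 differed by -0.34, S100a9 by -0.39, Retnlg by -0.31 and Ltf by 0.17. Both arrays belong to wash batch 2; within wash batch 1 S100a8 differed by 0.28, and within wash batch 2 by 1.89.

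After CL316243 the mature-cell transcripts differed most between genotypes, with ranges that overlapped for all 10. S100a8 differed by 1.86 ± 1.02, Retnlg by 1.86 ± 1.01, S100a9 by 1.71 ± 0.97 and Mmp8 by 0.6 ± 0.48, while Camp differed by 0.11 ± 0.4 and Mpo by -0.2 ± 0.28. Ngp was not well above background in either group. The median was 0.29 over the transcripts and 0.03 over all genes; 0 of 10 were past the threshold and 24.7% of all genes were. Without CTRL CL316243 replicate 3 the median was 0.12, and without replicate 5 it was 0.54.

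Fasting was compared with the fed state in each genotype. In CTRL livers the median difference from the fed state was 0.46 (all genes -0.02), with Retnlg at 2.38 ± 1.01, S100a8 at 0.99 ± 1.02 and Camp at -0.46 ± 0.4. Csf3r alone, 1 of 10, was past the threshold, beside 43.3% of all genes. Without the array labelled CTRL fasted replicate 2 the median was 0.07, with Retnlg at 1.42, S100a8 at 0.07 and Ltf at -0.61. In AAKO livers the median was 1.51 (all genes -0.09), with Retnlg at 5.15 ± 1.01, a 35.6-fold difference, S100a8 at 3.51 ± 1.02, Mmp8 at 2.68 ± 0.47 and Ngp at 2.01 ± 0.72. Mpo went the other way, at -0.96 ± 0.28. Of the 10, 7 were past the threshold, 6 higher and Mpo lower, beside 63.5% of all genes. Without AAKO fed replicates 1 and 6 the AAKO median was 2.58 and 6 were past it, Mpo no longer among them, beside 59.4% of all genes.

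Between CL316243 and fed livers the transcripts differed in both directions. The median difference from fed livers was -0.02 in CTRL and -0.03 in AAKO (all genes -0.03 and -0.01). In CTRL 0 of 10 were past the threshold, beside 23.3% of all genes. In AAKO 1 of 10 was, Mpo at -0.9 ± 0.28, beside 31.4% of all genes. The count was 0 without AAKO fed replicates 1 and 6, the highest 2 Mpo arrays of the fed AAKO group, as well as with the mean of all probes, with only the compared groups and in either wash batch alone. Without those replicates 28.3% of all genes were past the threshold, and the shares in the other fits are not given here. In CTRL livers S100a8 differed by -0.25 ± 1.02 and Retnlg by 0.39 ± 1.01; in AAKO livers they differed by 0.54 ± 1.02 and 1.19 ± 1.01.

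Fasted and CL316243-treated groups came from 1 experiment, so their contrast is free of the change of experiment. In AAKO livers fasting exceeded CL316243 by 3.97 ± 1.01 for Retnlg, 2.98 ± 1.02 for S100a8, 2.45 ± 0.97 for S100a9 and 2.31 ± 0.48 for Mmp8. Ranges did not overlap for Retnlg, Mmp8 and Ngp, and the share of all genes without overlap is not given here. The median was 2.37 (all genes -0.08) and 7 of 10, all higher, were past the threshold beside 59.9% of all genes. This median was 0.59 with normexp and quantile scaling, 1.17 with the authors' deposited table, which lacks Ltf, and 1.39 in wash batch 1 alone, where 4 of 10 were past the threshold, against 3.08 and 3 of 10 in wash batch 2 alone. Shares of all genes past the threshold in single wash batches are not given here. In CTRL livers the median was 0.68 (all genes 0.01), 0 of 10 passed beside 36.8% of all genes, and without the array labelled CTRL fasted replicate 2 the median was 0.02. These contrasts share groups with those above and are not independent of them.

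Differences of differences were computed in the same fit. The fasted genotype difference exceeded the fed one by a median of 1.05, with 2.78 ± 1.43 for Retnlg, 2.52 ± 1.44 for S100a8 and 1.82 ± 0.67 for Mmp8, the only 1 of 10 past the threshold, where 33.9% of all genes were. For CL316243 relative to fed the median was -0.06 with 0 of 10 past it, beside 10.9% of all genes. Fasting relative to CL316243 had a median of 1.57, all 10 values above 0 and 0 of 10 past it, beside 32.3% of all genes. Without the array labelled CTRL fasted replicate 2 the fasted against fed median was 1.77, with S100a8 at 3.44, Retnlg at 3.73 and 4 of 10 past the threshold (38.2% of all genes), and the fasting against CL316243 median was 2.3 with 2 past it (36.6%). Without AAKO fed replicates 1 and 6 the fasted against fed median was 2.11, with S100a8 at 3.94, Retnlg at 4.16 and 4 past the threshold (30.3%), and the CL316243 against fed median was 0.13.

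**Figure D2:**
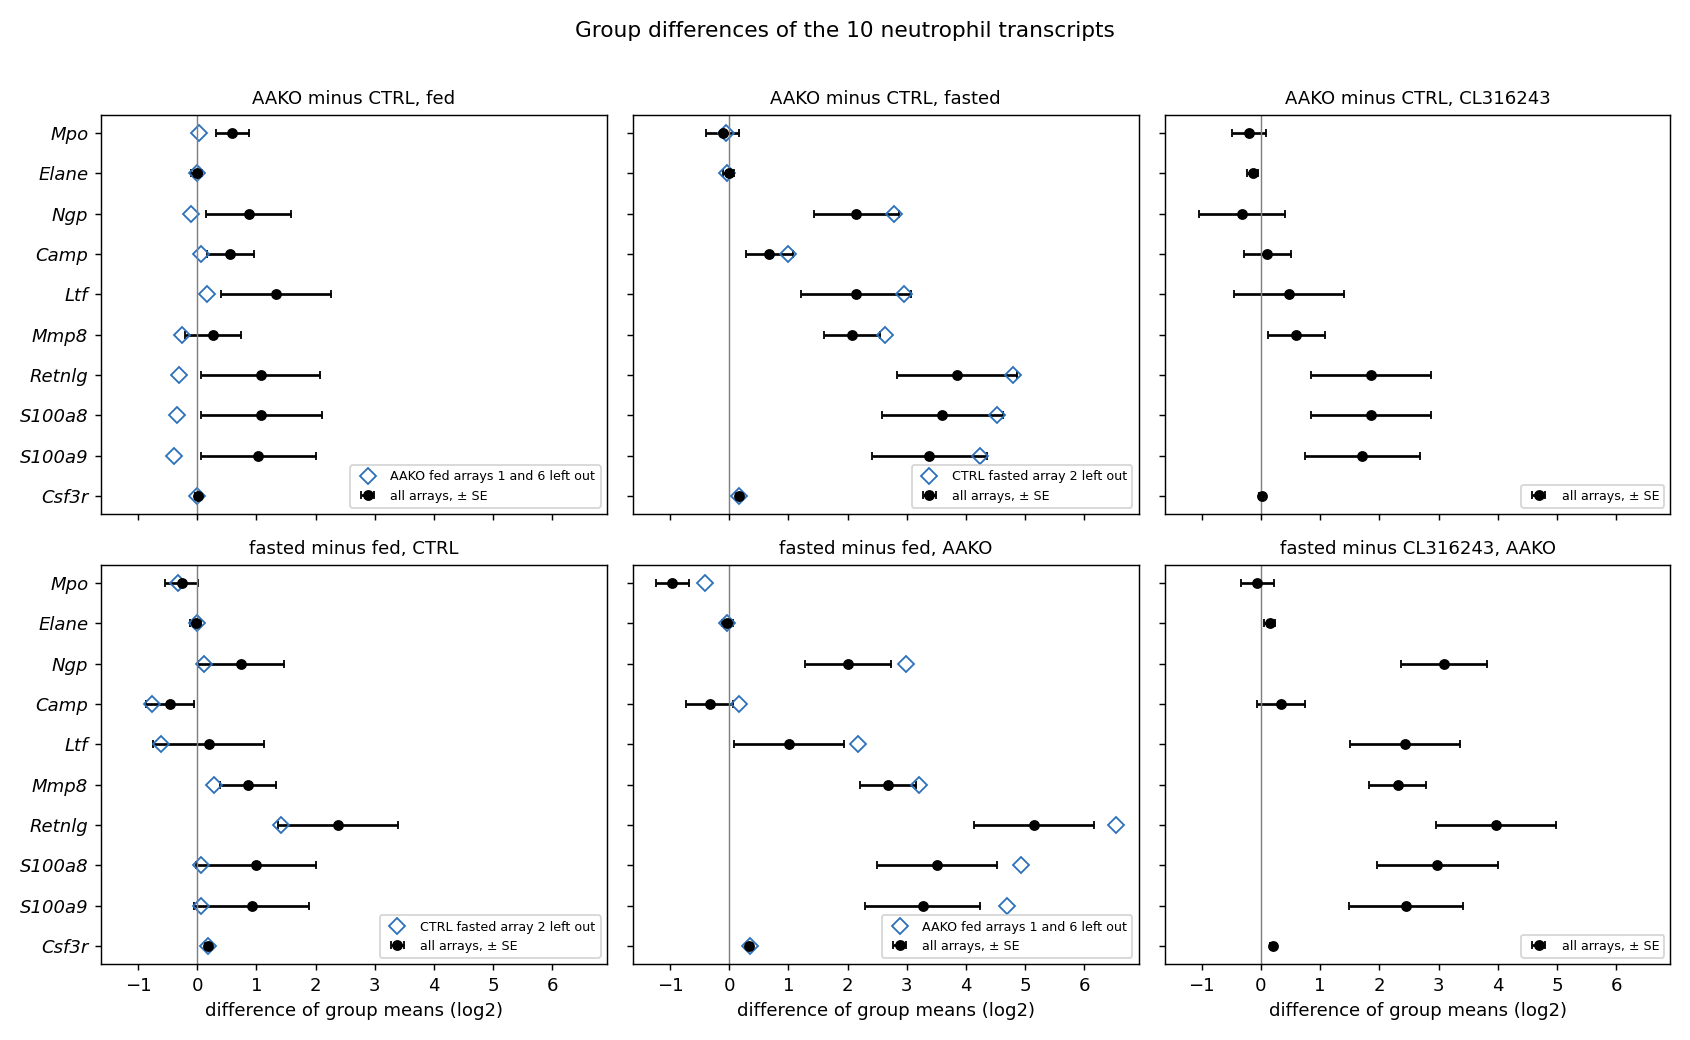
Horizontal axes give the difference of group means on the log2 scale for each transcript (rows) in 6 comparisons, black points with standard errors for all arrays and open blue diamonds after leaving out the arrays named in each panel. The fed genotype difference of S100a8 moves from 1.08 to -0.34 without AAKO fed replicates 1 and 6, and the fasted one from 3.6 to 4.52 without CTRL fasted replicate 2.

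Within groups, 8 of the 10 transcripts varied together. Over the deviations of the 36 arrays from their group means, S100a8 correlated with S100a9 at a Pearson r of 0.998 (Spearman 0.994) and with Retnlg at 0.973, and the median r of each of these 8 with the other 7 lay between 0.698 (Mpo) and 0.848 (Camp). Elane and Csf3r had median r of -0.0826 and -0.153 with the 8. These are descriptions over arrays that share their groups, with no test, and the split into 8 and 2 was made after seeing them. AAKO fed replicate 6 was the highest array of its group in all 8 of the 8 genes, the array labelled CTRL fasted replicate 2 in 7, AAKO fasted replicate 1 in 7 and CTRL CL316243 replicate 5 in 8. AAKO fasted replicate 6 was lowest in 7 and CTRL CL316243 replicate 4 in 7. Arrays of 1 group differed widely: the mean of the 8 genes spanned -4.77 to 0.39 in fasted CTRL and -4.29 to 0.03 in fed AAKO livers.

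**Figure D3:**
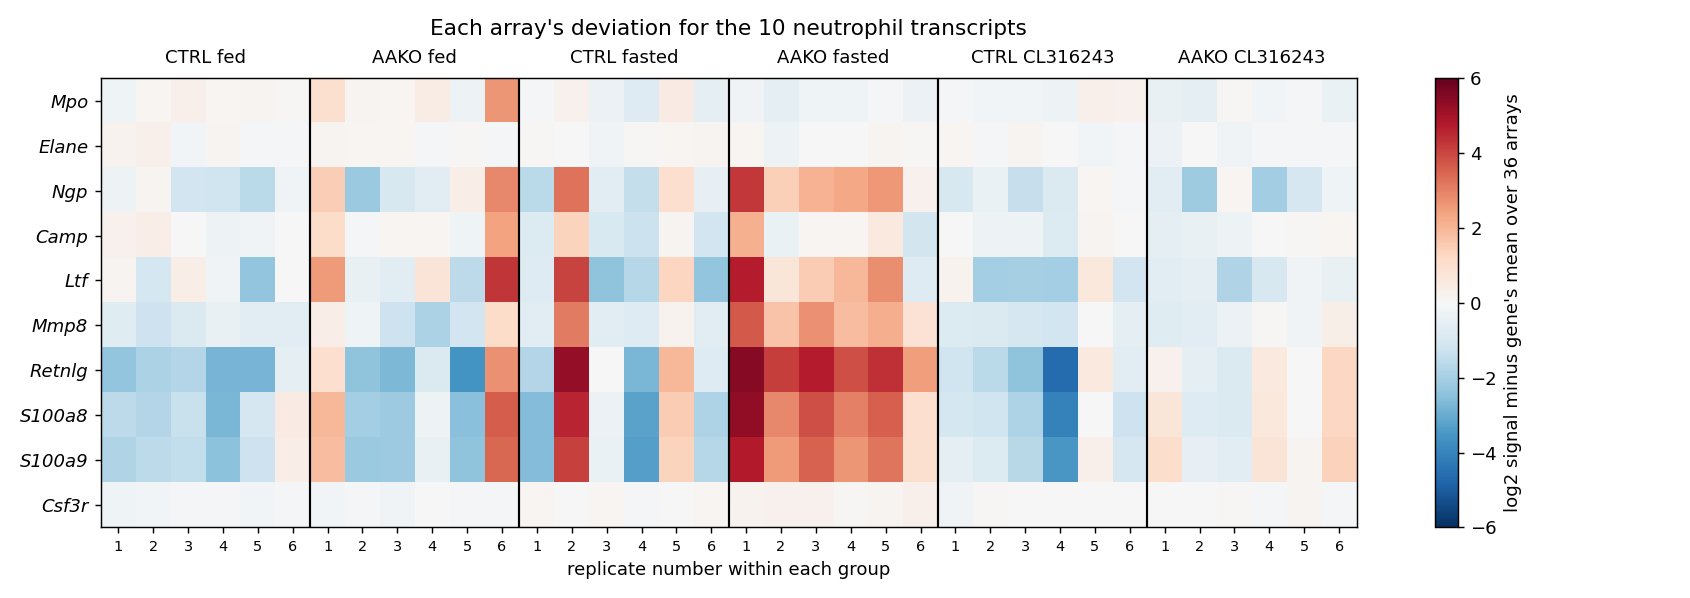
Colours give each array's log2 signal minus the transcript's mean over 36 arrays; columns are arrays ordered by group and replicate number, rows the 10 transcripts. CTRL fasted replicate 2, AAKO fed replicate 6 and most of the fasted AAKO block are red across Ngp, Ltf, Mmp8, Retnlg, S100a8 and S100a9, and the Elane and Csf3r rows stay near white.

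The tested genes whose deviations ran most like the mean of the 10 were Chil3 (r 0.915), Scrg1 (0.882), a probe target listed as NAP095950-001 (0.881), Il1r2 (0.859) and Clec4e (0.853), over 36 arrays. Chil3 encodes a chitinase-like protein stored by neutrophils and made by macrophages, Il1r2 the decoy receptor of interleukin 1 and Clec4e a C-type lectin of myeloid cells. Without the 2 arrays farthest from the middle, the one labelled CTRL fasted replicate 2 and AAKO fed replicate 6, these r were 0.861, 0.802, 0.874, 0.73 and 0.719.

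A wider list of 89 further neutrophil genes, none of them a member, was drawn up with earlier results of these data known. Its counts and p-values are therefore descriptive and give no independent support. In the same limma fit 70 passed the filter. Among the others Csf3, Il6, Cxcl2, Cxcl5 and Cd177 were measured but dim, 18 in all, and 1 (BC100530) was not on the array. Several genes of the list, such as Hp, Cebpa, Cebpb and Lcn2, are also made by hepatocytes, and others by macrophages or endothelium. In the fasted state 27 of 70 differed between genotypes, 18 higher and 9 lower in AAKO (limma, Benjamini-Hochberg over all genes, against 21.3% higher and 28% lower among all genes). Their median was 0.22. Without the array labelled CTRL fasted replicate 2, 23 were higher and 9 lower, with a median of 0.31, beside 51.8% of all genes called in either direction.

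Among surface receptors 5 of 25 rose and 1 fell. Il1r2 was higher by 3.01 ± 0.53 (SE), from -3.56 ± 1.4 in CTRL to -0.55 ± 0.743 in AAKO (SD, n = 6; limma adjusted p = 1.62e-05), with its second probe higher by 3.2; without the array labelled CTRL fasted replicate 2 the difference was 3.51. Clec4e was higher by 2.57 ± 0.5 (limma adjusted p = 6.43e-05) but cleared background on 1 of the 6 CTRL arrays. Without the array labelled CTRL fasted replicate 2, at -5.02 the highest of that group, Clec4e was higher by 3.03. It passed the filter through fasted AAKO alone (5 of 6 arrays), so its size is partly set by the background and its p-value gives no support. Cxcr2, the receptor that draws neutrophils along CXC chemokines, was higher by 1.66 ± 0.7 (limma adjusted p = 0.0486) and Itgam, the alpha chain of Mac-1, lower by 0.65 on the log2 scale. Ly6g, the surface antigen commonly used to sort neutrophils, stayed between -1.64 and -0.71 on every fasted array and differed by -0.27 ± 0.12 (limma adjusted p = 0.0503).

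Of the secondary and tertiary granule genes 5 of 10 rose and 1 fell. Mmp9, gelatinase B, was higher by 1.96 ± 0.66 (limma adjusted p = 0.0132). Without CTRL fasted replicate 4 the difference was 1.55 and the limma adjusted p was 0.0529. Mmp9 and Pglyrp1, the latter higher by 1.86, passed the filter through fasted AAKO alone. They cleared background on 1 and 4 of 6 fasted CTRL arrays, so their sizes are partly set by the background and the p-value of Mmp9 gives no support. Slpi was higher by 1.56, Adam8 by 1.34 and Anxa1 by 0.82, and haptoglobin (Hp) was lower by 0.5 on the log2 scale. In the primary granule list 0 of 4 rose and 2 fell, Gstm1 and Prss57, the latter by 0.68 on the log2 scale (limma adjusted p = 0.0218). The Prss57 call was lost without AAKO fasted replicate 3 (-0.57, adjusted p = 0.0643) or 4 (-0.4, 0.109). In the oxidase and cytoplasm list Hdc and Mxd1 rose while Wfdc21, Il1b and the interleukin 1 receptor antagonist Il1rn fell. Il1b was lower by 1.09 and Il1rn by 2.7 on the log2 scale (limma adjusted p = 0.00272 and 4.53e-06), and all 6 AAKO arrays lay below all 6 CTRL arrays for Il1rn, whose other probe differed by -1.42. Of the recruitment genes Vcam1 and Icam1 rose and Csf1 and Cxcl12 fell (the other probes of Csf1 differed by 0.3 and 0.39, the opposite sign), and the neutrophil chemokine Cxcl1 read -1.55 ± 0.932 in AAKO and -1.58 ± 0.577 in CTRL. Of the transcription factors 4 of 8 rose, Cebpb by 1.05, Cebpa by 0.86, Cebpd by 0.77 and Lmo4 by 0.56, and none fell.

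**Figure D4:**
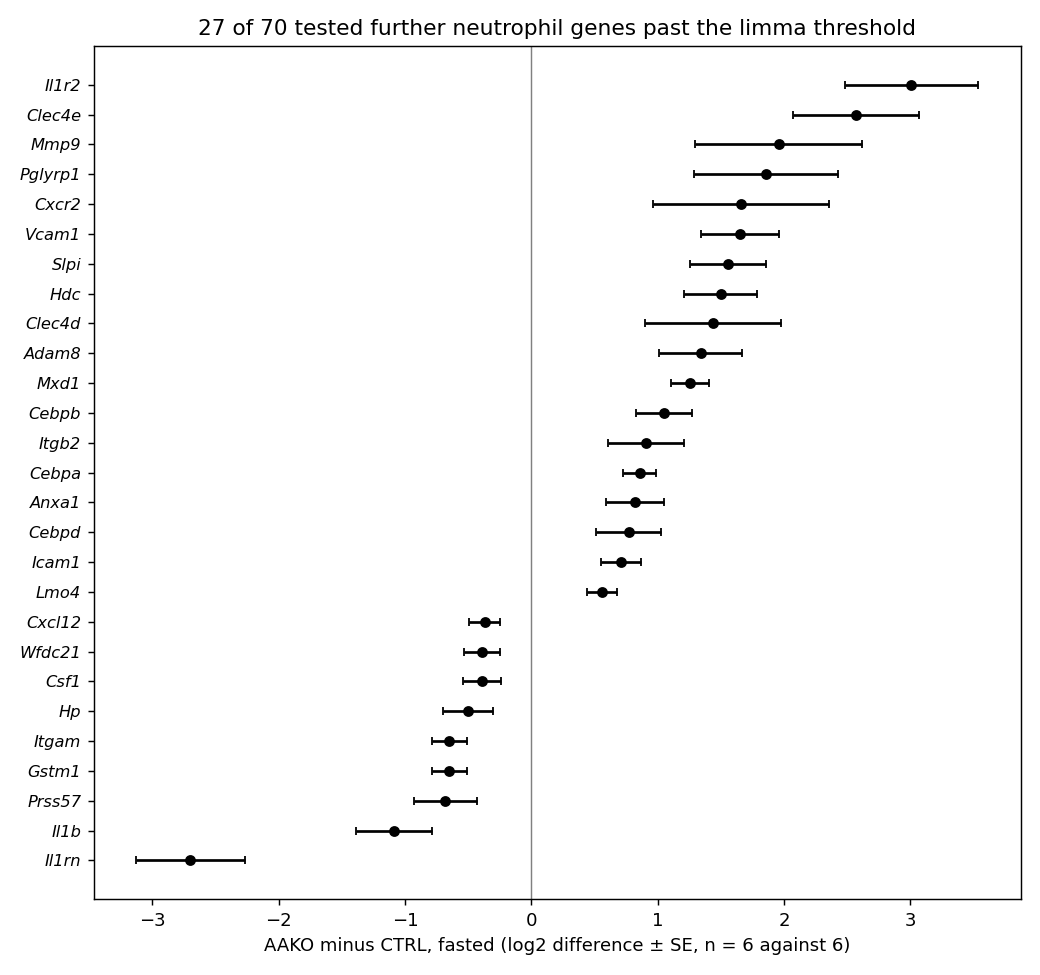
Points give the AAKO minus CTRL difference in fasted livers on the log2 scale with its standard error for each of the 27 further neutrophil genes past the threshold (rows, 6 arrays against 6). Il1r2 at 3.01 and Clec4e at 2.57 lie highest and Il1rn at -2.7 lowest. Clec4e cleared background on 1 of the 6 fasted CTRL arrays.

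In fed livers 0 of 70 further genes passed (6 at an unadjusted p under 0.05). After CL316243 16 of 70 did, 12 higher and 4 lower in AAKO, beside 24.7% of all genes, which is near the list's share. Il1r2 was higher by 2.36 ± 0.53 (limma adjusted p = 0.00113) with all AAKO arrays above all CTRL arrays, although its second probe differed by -0.04. Il1b was higher by 2.23 ± 0.3 (limma adjusted p = 1.41e-06), the opposite sign to the fasted state, and Il1rn was again lower, by 1.63 on the log2 scale (other probe -0.69). Cxcl1 was higher by 2.36 ± 0.81 (limma adjusted p = 0.0312), a call lost without AAKO CL316243 replicate 4, 5 or 6 or CTRL CL316243 replicate 3 or 4, whose leaving out gave 1.73 to 2.24. Cebpe and Csf1 were lower by 0.82 and 0.42 on the log2 scale, calls lost without several single arrays.

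Between fasted and fed livers 21 of 70 further genes passed in CTRL (10 higher, 11 lower), beside 43.3% of all genes, and 40 in AAKO (19 higher, 21 lower), beside 63.5%; neither share exceeds that of all genes. Clec4d rose in both, by 2.38 ± 0.54 in CTRL and 2.75 ± 0.54 in AAKO, and Il1r2 by 4.12 ± 0.53 in AAKO. Il1rn rose by 2.89 in CTRL (other probe 1.1) and Chil3 by 2.18 in CTRL (1.63 and not past the threshold without CTRL fasted replicate 2) and 2.23 in AAKO. Cxcl1 fell in both, with differences of -3.19 and -3.53 and no overlap. Cebpe, a factor of late granule genes, fell by 2.04 and Mxd1 by 1.08 in CTRL (other probe of Mxd1 -0.3), and Fpr1 by 2.18 and Il1b by 1.98 in AAKO.

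CL316243 against fed gave 18 calls in CTRL (4 higher, 14 lower) and 24 in AAKO (7 higher, 17 lower), beside 23.3% and 31.4% of all genes. Without CTRL CL316243 replicate 4 the CTRL count was 12, and without AAKO CL316243 replicate 4 the AAKO count was 15. In CTRL Il1rn rose by 3.62 (other probe 0.88), Csf2rb by 0.79 (other probes -0.19, -0.13 and 0.77) and Cd300lf by 0.66 (other probe -0.38), and Fcgr3 fell by 1.29, Il1b by 1.35 and Vcam1 by 1.39 (other probe -0.46). In AAKO Cxcl1 rose by 3.64 and Il1r2 by 2.37 (other probe -0.03), and Lyz2 fell by 1.14, Cybb by 1.19 and Fpr1 by 1.35; Lcn2, at 3.46 ± 1.3 (limma adjusted p = 0.0412), lost its call without any 1 of 7 arrays (2.79 to 3.42).

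Fasting against CL316243, within 1 experiment, gave 19 calls in CTRL and 37 in AAKO, beside 36.8% and 59.9% of all genes. Without the array labelled CTRL fasted replicate 2 the CTRL count was 15, beside 33.9% of all genes. Cxcl1 was lower after fasting, at -4.83 ± 0.81 in CTRL and -7.17 ± 0.81 in AAKO (limma adjusted p = 1.51e-05 and 4.5e-09), with no overlap in either. Lcn2 was lower by 3.47 in AAKO (without AAKO fasted replicate 3 or 6, -3.12 and -2.98, not past the threshold) and Prtn3 by 1.85 (without replicate 6, -1.55). In AAKO Pglyrp1 was higher by 2.37 and Vcam1 by 2.29. Pglyrp1 passed the filter through fasted AAKO alone and cleared background on 2 of 6 CL316243-treated AAKO arrays. Clec4d was higher by 2 in CTRL, where Cebpe was lower by 2.25. Among the 3 highest and 3 lowest genes called in each genotype, 3 had a compared group with no array well above background. Only approximate bounds are given for these, and the other genes called are not covered. Their brighter groups cleared background on 5 of 6 arrays and were taken as measured. Against the background bound Clec4e was 1.51-fold higher in fasted AAKO livers, and Asprv1 and Gfi1 were 1.67-fold and 1.22-fold higher in fasted CTRL livers. Prtn3 in CTRL, at -1.73 (limma adjusted p = 0.0482), lost its call in 22 of the 36 fits that left out 1 array.

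Interactions tested whether the genotype difference itself changed with condition. From fed to fasted 16 of 70 did, beside 33.9% of all genes, led by Il1r2 (2.84 ± 0.75, limma adjusted p = 0.00335) and Vcam1 (1.81 ± 0.44, 0.00167) on one side and Il1rn (-3.64 ± 0.61, 2.43e-05), Il1b (-2.16 ± 0.42, 0.000158) and the primary granule protease Ctsg (-1.22 ± 0.32, 0.00354) on the other. From fed to CL316243 4 did, beside 10.9% of all genes, Hdc, Mxd1 and Icam1 upwards and Il1rn downwards; the Icam1 call was lost in 15 alternative fits (0.63 to 0.84). Between fasting and CL316243 9 did, beside 32.3% of all genes, and 15 without the array labelled CTRL fasted replicate 2 (36.6%), with Cebpa at 1.23 ± 0.18 (limma adjusted p = 4.39e-06) and Il1b at -3.33 ± 0.42 (5.02e-07).

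Markers of other blood and liver cells were measured on the same arrays. Their lists were also chosen with earlier results known, so their counts are descriptive. Between fasted genotypes 21.3% of all genes were higher in AAKO and 28% lower, and the marker counts stand beside these shares. The 8 erythrocyte markers that passed, of 12 listed, had a mean level of 3.37 to 4.54 in fed AAKO, 2.97 to 3.79 in fasted CTRL and 2.35 to 3.24 in fasted AAKO livers; between fasted genotypes 0 of 8 rose and 1 fell, with a median of -0.39. Ahsp and Epb42 were among those that did not pass the filter. In fasted against fed AAKO livers 7 of 8 erythrocyte markers fell, median -1.08, beside 35.7% of all genes that fell. The 6 platelet markers that passed of 8 lay at -3.86 to -2.9 in fasted CTRL and -3.47 to -2.27 in fasted AAKO, with 1 of 6 higher (Gp1ba and Gp5 did not pass the filter).

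Monocyte markers, 7 of 7 measured and Chil3 among them, lay at -1.36 to -0.15 in fasted CTRL and -1.98 to -0.04 in fasted AAKO livers, with 2 higher and 2 lower. The 10 Kupffer cell markers lay at 0.19 to 2.09 and -0.05 to 2.09, with 2 higher and 0 lower, or 5 higher without the array labelled CTRL fasted replicate 2. Endothelial markers lay at 1 to 2 and 1.95 to 2.22, with 4 of 7 higher. B cell markers (5 of 6) lay at -4.27 to -3.27 and -3.91 to -3.27 with 0 of 5 called, and T and NK cell markers (7 of 10) at -1.9 to -1.09 and -2.18 to -1.4 with 2 lower. Cycling cell markers (7 of 8) lay at -3.54 to -2.8 and -3.53 to -2.71 with 2 higher. Of the eosinophil, basophil and mast cell markers 6 of 8, Epx, Prg2, Siglecf, Mcpt8, Cpa3 and Ms4a2, did not pass the filter, and 1 of the other 2 was higher. Of the 10 hepatocyte markers 3 rose and 5 fell, with a median of -0.13.

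Across the 36 arrays' deviations the mean of the 8 co-varying neutrophil genes correlated with the mean monocyte level at 0.843, with Kupffer at 0.667, B cell at 0.632, platelet at 0.608, endothelial at 0.427, T and NK cell at 0.381, erythrocyte at 0.355, eosinophil, basophil and mast cell at 0.278, cycling cell at 0.219 and hepatocyte markers at 0.128. These are descriptions over arrays that share RNA input and scaling, and the part of these cells in the neutrophil differences was not tested. The monocyte list includes Chil3, which is also on the list of further neutrophil genes. Of all tested genes Chil3 ran most like the mean of the neutrophil transcripts (r 0.915). The monocyte r is therefore not independent of the neutrophil signal, and a value without Chil3 is not given here.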

How the data were processed

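Each of 36 liver RNA samples was hybridised to 1 single-colour Agilent array from 200 ng of total RNA. Signal intensity per spot was deposited by the authors as background-subtracted processed signal, and per the file headers the scanner images were read by Feature Extraction 10.10.1.1 and probes placed on mm9. The deposited value table holds log2 values of 36898 probes, with each column closest to its own array (r 0.99957 to 0.99981). Its centring is not stated. Within each of the 6 groups the sorted values of its columns were equal, as quantile scaling within each group would leave them. Its group medians lie between 6.88 and 7.01, so groups were not set to a common level. It lacks Ltf and served as an alternative.

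From the processed signal, 2701 outlier spots (0.127%) were left out (0 were saturated), log2 signal was taken relative to the array's 75th percentile, and spots of a probe were averaged. A gene was its brightest probe by mean over all arrays. Genes well above background on at least 5 of 6 arrays of a group were fitted with limma 3.58.1 (R 4.3.3) as 6 group means plus wash batch, two-sided, with Benjamini-Hochberg adjustment over 24251 genes and a threshold of 0.05. The procedure was also run on simulated data, with an outcome not given here. Their noise was drawn independently for each gene and array, without arrays that stand apart. That run therefore says little about these p-values. Precision is limited by the 6 arrays per group. No label ties an array to an animal, so p-values measure the spread between these samples, which may be technical.

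The members, the further neutrophil genes and the marker lists were chosen with earlier results of these data known. Named further genes are the 3 highest and 3 lowest called in each contrast; others named were chosen after their values were seen. Alternatives were normexp with offset 50, quantile scaling, the authors' table, other probe rules, filters and designs, single wash batches and arrays left out. Replicate numbers were checked for pairing: deviations of same-numbered arrays correlated at -0.303 to 0.36 (median 0.00283, 90 pairs), against -0.318 to 0.291 for other numbers (450 pairs). The main fit therefore uses no pairing, although this check cannot show that no samples are paired.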

Additional observations from a re-analysis of the deposited data

Results flagged for a closer look

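Arrays far from the other 5 of their group by Dixon's ratio numbered 21 among 234 combinations of 39 genes and 6 groups; chance flags about 1 in 20 groups. Among the 10 transcripts, Elane in AAKO fasted replicate 2 was low at 0 (nearest 0.34) and Mmp8 in CTRL fasted replicate 2 high at -0.17 (nearest -3.1). That array was also the highest of its group in Clec4e (-5.02), Hdc (1.34), Il1r2 (-0.76) and Vcam1 (2.56), and the lowest in Csf1 (0.05) and Il1b (-2.5). AAKO fasted replicate 6 was lowest in Cybb (-4.19), Fcgr3 (-1.32), Il1rn (-6.93) and Lyz2 (2.36). CTRL fed replicate 6 was highest in Lcn2 (5.86), Prtn3 (-1.41) and Vcam1 (1.37). The others were CTRL fasted replicate 5, high in Hp (9.61) and Prtn3 (-2.93), AAKO fasted replicate 3, low in Cxcl1 (-3.33), AAKO fed replicate 6, high in Hdc (-0.44), AAKO CL316243 replicate 6, high in Fcgr3 (0.58), and AAKO CL316243 replicate 2, low in Chil3 (-4.89).

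Named further genes whose genotype difference changed with condition by the interaction test (limma, adjusted over all genes) are these. From fed to fasted, Il1r2 changed by 2.84, Vcam1 by 1.81, Clec4e by 1.8 (adjusted p = 0.047), Ctsg by -1.22, Il1b by -2.16 and Il1rn by -3.64. Clec4e was well above background on 0, 1, 1 and 5 arrays of the CTRL fed, AAKO fed, CTRL fasted and AAKO fasted groups, so its value has little measured signal on the other sides, and its call was lost in 30 alternative fits (0.17 to 1.84). From fed to CL316243, Hdc changed by 1.48, Mxd1 by 0.77, Icam1 by 0.76 (a call lost in 15 alternative fits) and Il1rn by -2.58. Between CL316243 and fasting, Clec4e changed by 2.28, Vcam1 by 1.38, Cebpa by 1.23, Hp by -0.81, Gfi1 by -1.37 and Il1b by -3.33. Clec4e and Gfi1 were well above background on 0 arrays of both CL316243 groups, so the sizes of these 2 changes are not measured; with normexp they were 0.22 and -0.09. The calls of Gfi1 and Hp were lost in 11 and 7 alternative fits.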

How the results depend on the processing

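Member values shifted by less than the standard deviation within the compared groups in 4379 cases and by more in 22. A shift within that spread can still change a sign, as for S100a8 in fed livers without AAKO fed replicates 1 and 6. Many of the fits counted left out an array outside the compared groups, which can hardly move a contrast, so these totals do not measure stability. Named further genes kept their call in 2937 cases, lost it in 198 and reversed in 1. The reversed one was Gfi1 between fasting and CL316243, at 0.05 (limma adjusted p = 0.931) with the mean of all probes. The causes were not tested. Fits of a single wash batch also hold fewer arrays. With replicate numbers as a block the fasted genotype median was 2.11, no count of calls moved by over 1.5 times, and further genes called went, for example, from 16 to 18 for genotype after CL316243 and interactions between fasted and fed from 16 to 14. With normexp and quantile scaling the fasted genotype median was 0.44 and that of fasting against CL316243 in AAKO 0.59. With the authors' table the latter was 1.17. Members called for CL316243 against fed numbered 1 in CTRL and 2 in AAKO with normexp or with quantile scaling, and 2 in AAKO with the authors' table, which also gave 2 for fasting against fed in CTRL. That AAKO count was 0 with the mean of all probes, with only the compared groups, in either wash batch, or without AAKO fed replicates 1 and 6, and 2 without those and CTRL fasted replicate 2. Leaving out the AAKO fed pair gave 2 members for fasting against fed in CTRL, and leaving out all 3 gave 16 interactions between fasting and CL316243. In wash batch 1 alone the median of fasting against CL316243 in AAKO was 1.39 with 4 members called, and fasting against fed in CTRL called 0; further genes called were 8 for genotype after CL316243, 11 for fasting against fed in CTRL, 5 and 11 for CL316243 against fed in CTRL and AAKO, with 1 and 4 interactions for CL316243 against fed and fasting against CL316243. In wash batch 2 alone members called were 0 for the fasted genotype difference, 0 and 3 for fasting against fed in CTRL and AAKO and 3 for fasting against CL316243 in AAKO, with medians of 3.08 there and -1.12 for CL316243 against fed in AAKO; further genes called were 2 for genotype after CL316243, 2 and 5 for CL316243 against fed, 9 and 21 for fasting against CL316243, with 3, 0 and 3 interactions. Leaving out each array in turn moved further genes called in fed livers between 0 and 1, members called between 1 and 2 for fasting against fed in CTRL, 0 and 1 for CL316243 against fed in CTRL, 1 and 2 in AAKO, and 0 and 1 for fasting against CL316243 in CTRL, further genes for CL316243 against fed in AAKO between 15 and 27, and interactions between fasting and CL316243 between 7 and 15. For most of these alternative fits the share of all genes called is not given, so nothing is read from their counts of calls. Signal near background limits Ngp and Ltf, well above it on 11 and 14 of 36 arrays.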
